A study of Homo sapiens with 12 samples.

Results

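The 33 genes described here encode proteins of homologous recombination and of the Fanconi anaemia repair pathway, with a pair of mismatch repair genes. They were chosen by symbol with earlier results of these data known, and all 33 were found among the 26364 genes of the count files. The RNA came from HL-60, a line of human promyelocytic leukaemia that matures toward neutrophils when all-trans retinoic acid (ATRA) is added. The 12 libraries fall into 4 groups of 3: untreated cells (RA0h) and cells kept in 1 µM ATRA for 4 h (RA4h), 2 d (RA2d) or 4 d (RA4d). All groups are the same line in the same serum-containing medium, and no untreated library of the later times is among those analysed here, so time in culture and ATRA cannot be told apart. The labels give no statement that the 3 replicates of a group were separate cultures, so p-values measure the spread between these libraries, which may be technical.

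Homologous recombination repairs a DNA double-strand break by copying an undamaged sister chromatid, and is therefore used mainly in cells that have replicated their DNA. The MRE11-RAD50-NBN complex senses the break, nucleases and helicases trim its ends, the kinases ATM and ATR signal through CHEK2 and CHEK1, and BRCA1, BRCA2 and their partners prepare the trimmed strand for the search of its sister. The Fanconi core complex ubiquitinates the FANCD2-FANCI pair at DNA crosslinks and hands the resulting breaks to the same machinery.

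Promoter sequence is shown for the 4 members that fell most after 4 d and for the member that rose most, because cell-cycle genes are often read from promoters with E2F or CHR elements. Each stretch runs 5′ to 3′ on the strand of its gene, from 120 bases before to 30 bases after the RefSeq start site in GRCh38.p14. Capitals mark an E2F-type match (TTTNNCGC) or a CHR match (TTTGAA), searched on both strands. RAD51C is at chr17:58692453-58692602 (+), EXO1 at chr1:241848084-241848233 (+), CHEK1 at chr11:125626104-125626253 (+), MSH6 at chr2:47783025-47783174 (+) and ATM at chr11:108222947-108223096 (+).
RAD51C: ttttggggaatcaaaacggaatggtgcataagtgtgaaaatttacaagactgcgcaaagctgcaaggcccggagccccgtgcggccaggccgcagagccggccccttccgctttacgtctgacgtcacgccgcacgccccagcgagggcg
EXO1: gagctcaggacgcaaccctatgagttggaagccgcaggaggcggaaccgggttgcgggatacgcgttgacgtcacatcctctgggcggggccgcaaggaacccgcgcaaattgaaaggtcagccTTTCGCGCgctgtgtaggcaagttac
CHEK1: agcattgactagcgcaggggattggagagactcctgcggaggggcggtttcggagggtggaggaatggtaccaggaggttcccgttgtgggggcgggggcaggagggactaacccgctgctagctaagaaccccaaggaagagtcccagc
MSH6: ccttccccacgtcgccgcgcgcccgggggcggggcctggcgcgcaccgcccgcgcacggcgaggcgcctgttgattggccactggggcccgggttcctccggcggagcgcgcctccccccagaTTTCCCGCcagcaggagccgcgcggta
ATM: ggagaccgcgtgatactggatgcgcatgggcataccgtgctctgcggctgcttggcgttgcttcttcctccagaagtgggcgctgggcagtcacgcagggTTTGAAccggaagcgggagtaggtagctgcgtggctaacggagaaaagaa
EXO1 and MSH6 hold an E2F-type match near the start site, ATM holds a CHR match, and neither set of letters is in the stretches of RAD51C and CHEK1.

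RefSeq promoter windows of 300 bases (250 before and 50 after the start) were matched for 30 of the 33 members. The E2F-type letters were in 8 of those 30 windows (26.7%): EXO1, CHEK2, XRCC2, FANCA, FANCC, FANCD2, MSH6 and PMS2. They were in 6.9% of all 27305 RefSeq windows of that length and in 10.7% of the 9959 tested genes that have one. In the 250 bases before the start alone they were in 4 members (13.3%: CHEK2, FANCA, FANCC and PMS2), against 6.0% of all windows. The CHR letters were in 3 member windows (10%; ATM, BRIP1 and FANCC) against 15.3% of all windows and 9.7% of those of tested genes. The CCAAT box was in 15 (50%) against 35.8% and 37.1%. No match of one motif overlapped a match of another in the member windows, and a match describes letters, not a bound site.

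Between 7866757 and 13658177 reads per library were assigned to genes. All 33 members were among the 12671 genes that passed the filter on low counts, with 22 reads in the lowest library of the rarest member (FANCB) and 2899 in the highest single library of any member (XRCC3). The granulocyte genes of the line were abundant, with MPO, the myeloperoxidase of primary granules, at 28000 CPM (reads scaled to a common library size) untreated and 8130 CPM at 4 d. ITGAM (53.8 to 395 CPM) and CYBB (151 to 1330 CPM), both carried by maturing neutrophils, rose over the same interval. Of the 5 erythroid and megakaryocyte markers only ITGA2B passed the filter, HBA1 had no read and HBB had 2 reads in all. Of the 6 lymphoid markers 3 passed, and the list summed to between 7.04 and 17.8 CPM in every library. Within it CD3E rose from 0.562 to 6.18 CPM at 4 d and CD79A fell from 11.7 to 5.82 CPM. The 4 monocyte markers summed to 26.3 to 29.7 CPM untreated and 108 to 131 CPM at 4 d, with CSF1R higher and CD163 with no read at 4 d. Of the 3 monocyte markers that passed the filter, 2 were called higher at 4 d and 1 lower. CD14 had 723 reads over the untreated libraries, 114 at 4 h, 137 at 2 d and 468 at 4 d. MS4A1 and NCAM1 had reads at 4 h alone (6 and 14 in all). The part of a monocyte programme in the results was not tested.

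Some libraries stood apart. GC-rich genes read higher than in the rest of the group in the library of replicate 2 at 0 h, of replicate 3 at 4 h and of replicate 1 at 4 d, with slopes of 0.487, 0.362 and 0.311 log2 units per 10 points of GC against -0.352 to 0.062 in the other 9. In 4 h replicate 1, reads fell on 22265 genes against 15198 to 15798 in the others. Calls at 4 d that changed when these libraries were left out are given beside the gene. A further fit offset GC content and transcript length, from each library's difference to the mean over the 4 times. That offset therefore also takes out any difference between times that goes with GC content or length.

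After 4 d in ATRA most of the recombination and Fanconi genes were lower than in untreated cells, whereas the break sensor subunit NBN and the kinase ATM were higher. Of the 33 members 24 fell (72.7%, where 29.7% of all 12671 tested genes were called lower) and 2 rose (28.1% of all genes were called higher). The members were chosen with earlier results of these data known, so these shares describe them and are not an independent test. Calls are from edgeR's quasi-likelihood test over the 12 libraries, at a Benjamini-Hochberg adjusted p under 0.05 over all tested genes. The median log2 fold change of the members was -0.89, beside 0.00 over all genes tested. For 14 of the 24 the fall was at least 2-fold, where 2230 of the 12671 tested genes were called lower by that much. For 24 members, FANCL included and XRCC3 not, every 4 d library lay below every untreated library (29.9% of all genes) and for 2 every one lay above (29.1% of all genes). In bulk RNA, fewer cells that use a gene and less of its RNA per cell cannot be told apart.

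**Figure D1:**
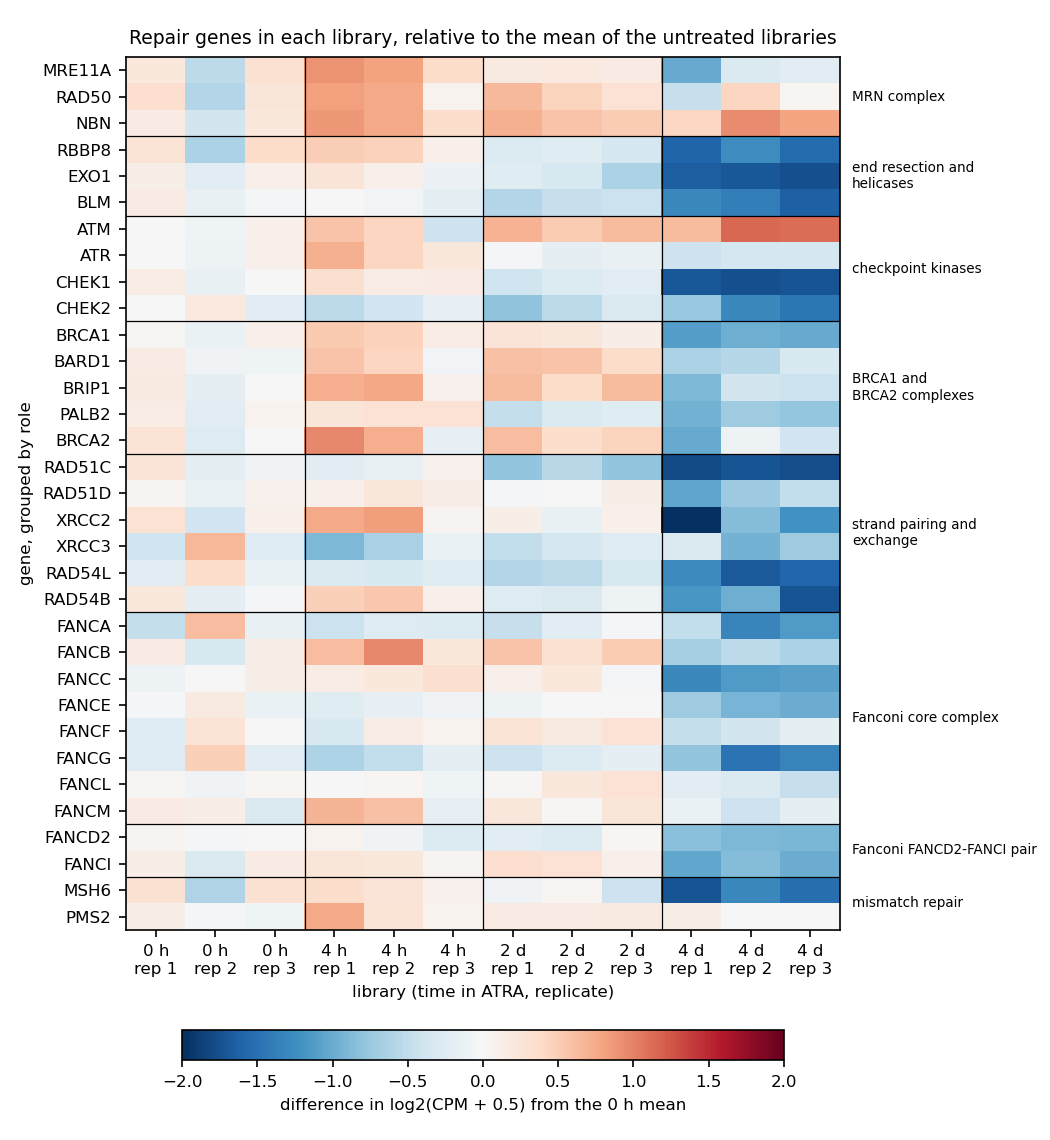
Each cell is 1 gene (rows, grouped by role) in 1 library (columns), coloured by the difference in log2(CPM + 0.5) from the mean of the 3 untreated libraries. The 3 libraries at 4 d are blue for most genes, with medians over the 33 genes of -0.90, -0.87 and -0.91, while the NBN and ATM rows are red there.

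Of the 3 subunits of the MRN complex, which holds the broken ends and recruits ATM, NBN was called higher at 4 d. NBN, its signalling subunit, read 32.0, 21.9 and 32.9 CPM in the 3 untreated libraries, 52.2, 48.5 and 36.4 CPM at 4 h, 46.9, 42.5 and 40.5 CPM at 2 d and 38.1, 55.1 and 49.8 CPM at 4 d. All 9 treated libraries lay above every untreated one, although 4 d replicate 1, one of the GC-shifted libraries, was the lowest of the 3. NBN rose 1.65-fold at 4 d (log2 0.72 ± 0.20 SE, adjusted p = 0.00675 by edgeR's quasi-likelihood test). MRE11A, the nuclease, differed by -0.51 ± 0.24 (adjusted p = 0.087), and RAD50, the coiled-coil bridge, by -0.01 ± 0.28 (adjusted p = 0.986 by the same test). The libraries of both genes overlapped between 0 h and 4 d. MRE11A was called lower by edgeR without 0 h replicate 2 (adjusted p = 0.0123), without the 3 GC-shifted libraries (-0.52, adjusted p = 0.000794), with no filter on low counts (adjusted p = 0.0381) and with GC content and length offset in the fit (-0.80, adjusted p = 0.000121).

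All 3 members that trim and unwind the ends fell at 4 d. EXO1, the exonuclease of long-range resection, read 33.5, 26.8 and 33.1 CPM untreated, 37.1, 33.1 and 28.6 at 4 h, 26.0, 24.6 and 19.7 at 2 d and 9.56, 9.22 and 8.80 CPM at 4 d. The untreated and 4 h libraries overlapped, the 2 d libraries lay just below the untreated ones, and the 4 d libraries were at less than any other. The change at 4 d was -1.76 ± 0.17 on the log2 scale (29.5% of the untreated level, adjusted p = 1.42e-06 by edgeR). RBBP8 (CtIP), which starts resection with MRE11, fell by 1.55 and BLM, the Bloom syndrome helicase, by 1.46 on the log2 scale.

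The checkpoint kinases split. CHEK1, the effector kinase downstream of ATR at stalled forks, read 58.5, 47.8 and 53.2 CPM untreated, 66.0, 58.9 and 59.6 at 4 h, 40.2, 43.8 and 45.2 at 2 d and 16.1, 15.3 and 15.6 CPM at 4 d. Its 4 d libraries lay far below the rest and close to each other (15.7 ± 0.422 CPM, SD, n = 3, against 53.1 ± 5.35 CPM untreated). The log2 change was -1.76 ± 0.13 (adjusted p = 1.95e-07 by edgeR). ATM, the kinase that answers double-strand breaks, read 93.7, 88.9 and 101 CPM untreated, 140, 128 and 71.1 at 4 h, 153, 135 and 147 at 2 d and 146, 209 and 205 CPM at 4 d. All 2 d and 4 d libraries lay above all untreated ones, whereas the 4 h libraries spread to both sides.

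ATM was 1.97-fold higher at 4 d (log2 0.98 ± 0.23, adjusted p = 0.00226 by edgeR). Its transcript has 39.08% GC and 13147 bases. With GC content and transcript length both offset in the fit the rise was 0.43 (adjusted p = 0.00249 by edgeR). Without the 3 GC-shifted libraries the rise was 1.09. Which of GC content and length the smaller rise went with was not tested. CHEK2, the effector kinase downstream of ATM, fell by 1.16 on the log2 scale (adjusted p = 0.000295), or by 0.75 with that offset (adjusted p = 0.00835 by edgeR). CHEK2 also has near-identical copies elsewhere in the genome that can take a share of its reads. ATR, which answers single-stranded DNA at stalled forks, changed by -0.37 ± 0.15 (adjusted p = 0.0426 by edgeR). With 9 of the 12 libraries left out singly ATR was no longer called, at adjusted p between 0.0521 and 0.126; it was still called without 0 h replicate 2, 4 h replicate 1 or 4 h replicate 3. By edgeR the ATR call was also lost with RLE factors (adjusted p = 0.0523), library totals alone (0.209) or no filter on low counts (0.174). It was lost too with only the 6 libraries of the 2 groups (0.0534) or replicate number as a block (0.0715). With the GC and length offset ATR was at -0.71 (adjusted p = 0.000324 by edgeR).

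**Figure D2:**
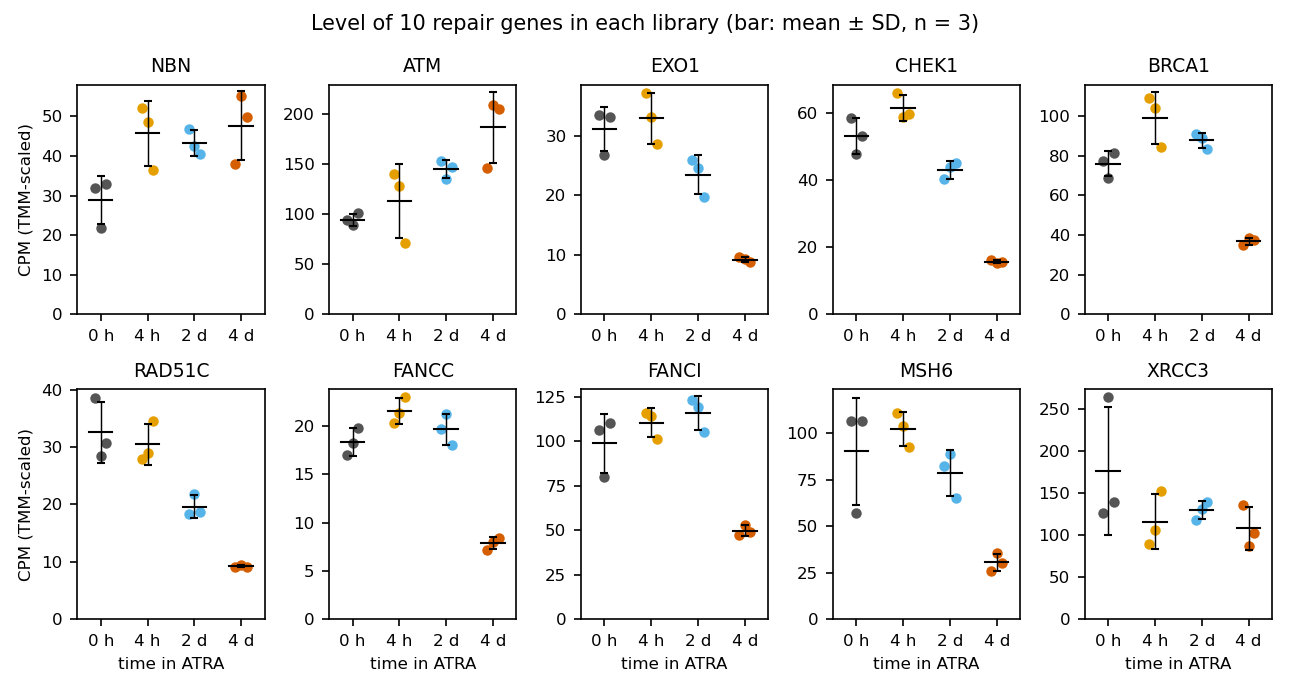
Points are the CPM of 10 genes in each library by time in ATRA, and bars give the mean ± SD of 3 libraries. NBN and ATM lie higher at 4 d than at 0 h, the next 7 genes lie below every earlier library at 4 d, and XRCC3 overlaps between 0 h and 4 d, with 136 CPM in 4 d replicate 1 and 126 CPM in 0 h replicate 1.

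In the BRCA1 and BRCA2 complexes 4 of 5 members fell at 4 d. BRCA1, the scaffold that directs breaks toward recombination, read 77.3, 69 and 81.5 CPM untreated, 109, 104 and 84.3 at 4 h, 91.0, 89.1 and 83.5 at 2 d and 34.9, 38.4 and 37.4 CPM at 4 d. Its 4 h and 2 d libraries were all above the untreated ones, and its 4 d libraries were all below them. The 4 d change was -1.04 ± 0.14 (48.6% of untreated, adjusted p = 3.52e-05 by edgeR). PALB2, the bridge between BRCA1 and BRCA2, fell by 0.84 on the log2 scale. BARD1, the obligate partner of BRCA1 in its ubiquitin ligase, changed by -0.52 (adjusted p = 0.0279) and the helicase BRIP1 by -0.58 (adjusted p = 0.0338 by edgeR). BRCA2, which acts on the trimmed strand, differed by -0.47 ± 0.28 (adjusted p = 0.171 by edgeR), with 13.9, 26.5 and 21.7 CPM at 4 d against 34.3, 23.6 and 28.2 CPM untreated. It was called lower by edgeR without the 3 GC-shifted libraries (-0.38, adjusted p = 0.0338) and with the GC and length offset (-1.04, adjusted p = 3.88e-06).

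The calls of BARD1 and BRIP1 rested on single libraries and on the processing. By edgeR the adjusted p of BARD1 rose to 0.0933 when replicate 1 at 0 h was left out, and to 0.0895 or 0.0803 for replicate 1 or 2 at 4 d. For BRIP1 leaving out replicate 1 or 3 at 0 h gave 0.108 or 0.0658, and leaving out replicate 1 or 3 at 4 d gave 0.13 or 0.0518.

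All 6 genes of strand pairing and exchange (RAD51C, RAD51D, XRCC2, XRCC3, RAD54L and RAD54B) were called lower at 4 d. RAD51C, which is found in both complexes formed by this family, had the largest fall of the 33. It read 38.6, 28.5 and 30.7 CPM untreated, 27.9, 29 and 34.5 at 4 h, 18.4, 21.9 and 18.6 at 2 d and 9.04, 9.42 and 9.15 CPM at 4 d. The groups stepped down without overlap from 4 h to 2 d to 4 d. The 4 d change was -1.82 ± 0.16 (28.3% of untreated, adjusted p = 8.81e-07 by edgeR). The strand-exchange motors RAD54L and RAD54B fell by 1.54 and 1.40, XRCC2 by 1.43 and RAD51D by 0.76 on the log2 scale. RAD54B was rare, at 2.09 to 3.87 CPM at 4 d, and shares 66.5% of its exon bases with FSBP on the same strand.

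XRCC3, the partner of RAD51C in the smaller paralog complex, was the exception in its replicate spread. It read 126, 264 and 139 CPM untreated, 89.1, 106 and 152 at 4 h, 118, 131 and 139 at 2 d and 136, 86.3 and 102 CPM at 4 d. The 0 h and 4 d libraries overlapped, and the GC-shifted library of each of the 3 groups that has one was the highest of its group. The 4 d change was -0.71 ± 0.28 (adjusted p = 0.0439 by edgeR), and -0.30 without 0 h replicate 2 (adjusted p = 0.258). The adjusted p by edgeR was also 0.144 without 4 d replicate 2, 0.112 without 4 d replicate 3, and between 0.0539 and 0.0551 without 4 h replicate 2 or any one 2 d library. By limma-voom it was 0.0552. By edgeR it was 0.0544 with RLE factors, 0.102 with only the 6 libraries of the 2 groups and 0.0894 with replicate number as a block. XRCC3 shares 67.4% of its exon bases with KLC1 on the opposite strand, and the strand setting of the counting is not given in the sources used here. The same limit holds for RAD54L (25.1% with LRRC41), FANCL (22.9% with VRK2) and FANCA (22.1% with ZNF276). It also holds for MSH6 (15.0% with FBXO11) and FANCF (11.3% with GAS2), and some other members share smaller parts, up to 8.2% for FANCI.

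Of the 8 Fanconi core genes 5 fell and 3 were not called. FANCC, a core subunit, read 17, 18.2 and 19.8 CPM untreated, 20.3, 21.3 and 23.0 at 4 h, 19.7, 21.2 and 18 at 2 d and 7.17, 8.03 and 8.36 CPM at 4 d. Only the 4 d libraries stood apart downward (-1.22 ± 0.15, adjusted p = 1.27e-05 by edgeR). FANCG, which binds FANCA, fell by the same 1.22 on the log2 scale, from 73.8, 123 and 76.5 CPM untreated to 50.8, 31.4 and 34.7 CPM at 4 d; the highest value of each triple was the GC-shifted library. FANCA fell by 1.02, or by 0.64 without 0 h replicate 2 (adjusted p = 0.0245 by edgeR), and FANCE by 0.90 on the log2 scale. FANCB changed by -0.73 (adjusted p = 0.0287 by edgeR) from 3.99 to 2.41 CPM. Leaving out replicate 1 or 3 at 0 h gave an adjusted p of 0.0876 or 0.0812, and replicate 1 or 3 at 4 d 0.0695 or 0.0747. The adjusted p of FANCB was also 0.0576 by limma-voom. By edgeR it was 0.0826 with library totals alone, 0.0632 with no filter on low counts and 0.0514 with replicate number as a block.

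The 3 core genes not called at 4 d were FANCF (-0.36), an adaptor of the complex, FANCL (-0.34), its ubiquitin ligase, and FANCM (-0.27), its DNA translocase, at adjusted p of 0.0973, 0.0609 and 0.331 by edgeR. FANCL read 12.8, 12.2 and 10.8 CPM at 4 d, all below the 14.4 to 15.6 CPM of untreated cells. By edgeR, FANCL was called without the 3 GC-shifted libraries (-0.42, adjusted p = 0.0263), FANCF without 0 h replicate 1 (adjusted p = 0.0404) and FANCM with the GC and length offset (-0.58, adjusted p = 0.0326). Both targets of that ligase fell. FANCI read 106, 79.9 and 110 CPM untreated, 116, 114 and 101 at 4 h, 123, 119 and 105 at 2 d and 47.2, 53.1 and 48.7 CPM at 4 d, the 4 d libraries alone standing apart (-0.99 ± 0.16, adjusted p = 0.000115 by edgeR). FANCD2 fell by 0.89 on the log2 scale, from 91.4 ± 2.74 to 49.3 ± 1.46 CPM (SD, n = 3).

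The mismatch repair members differed from each other. MSH6, which recognises base mismatches, read 107, 57.3 and 107 CPM untreated, 111, 104 and 92.6 at 4 h, 82.7, 89.0 and 65.1 at 2 d and 25.8, 35.4 and 30.4 CPM at 4 d. The lowest untreated library was GC-shifted and still lay above every 4 d library (-1.57 ± 0.23, adjusted p = 7.01e-05 by edgeR). PMS2, an endonuclease of the same pathway, read 9.84 to 11.4 CPM untreated and 10.4 to 11.4 CPM at 4 d, a difference of 0.04 ± 0.19 (adjusted p = 0.871 by edgeR). PMS2 has pseudogene copies that can share its reads.

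**Figure D3:**
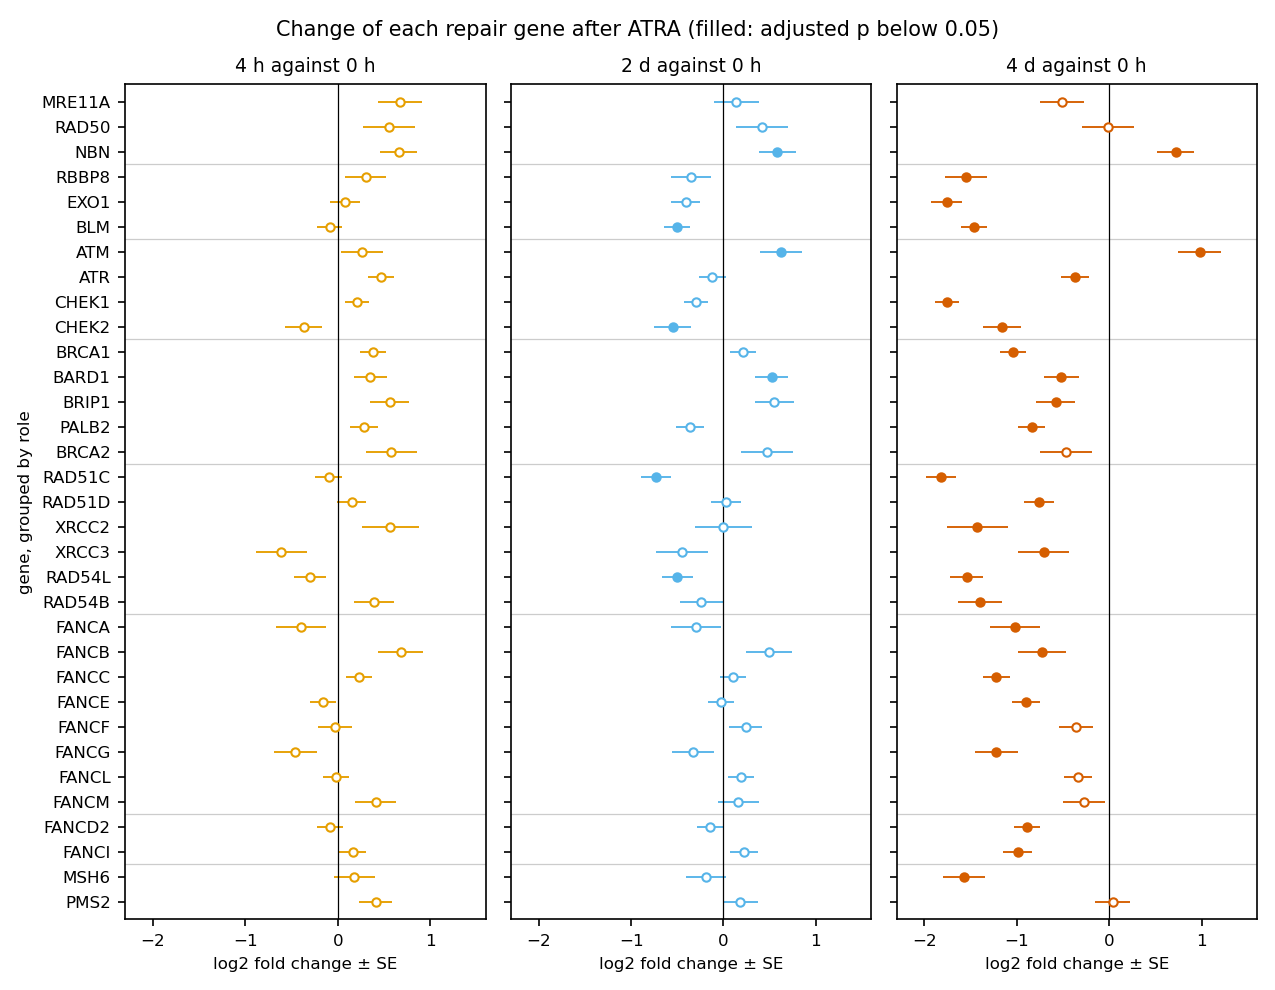
Points give the edgeR log2 fold change of each gene against 0 h, with bars of 1 SE, at 4 h, 2 d and 4 d; filled points passed an adjusted p of 0.05. None is filled at 4 h, 7 are at 2 d and 26 at 4 d, with 24 to the left of 0 and NBN and ATM to the right.

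Most of the 4 d fall came after 2 d. Against untreated cells, 4 members were called lower at 2 d (18.7% of all genes) and 3 higher (16.9% of all genes), with a median of 0.00 over the members and -0.02 over all genes. Without the 3 GC-shifted libraries 9 members were lower and 6 higher, but calls over all genes also grew, to 3500 lower and 3261 higher of 12806. The 4 were RAD51C (-0.73 ± 0.16, adjusted p = 0.00293), CHEK2 (-0.55), BLM (-0.50) and RAD54L (-0.50), and the 3 were ATM (0.62), NBN (0.58) and BARD1 (0.52), by edgeR. RAD51C alone was called in every fit that left out 1 library. Without 2 d replicate 1 the other 6 were no longer called (adjusted p by edgeR between 0.0654 and 0.191). Without 0 h replicate 2 or 2 d replicate 2 the same was true of all but BLM (0.0835 to 0.131). Each of the other libraries except 4 h replicates 1 and 3 and 4 d replicate 1 ended between 2 and 4 of the calls (0.0528 to 0.105). The GC and length offset brought ATM to 0.15, BARD1 to 0.25 and CHEK2 to -0.32, none called. RAD54L was at -0.31 without 0 h replicate 2 (adjusted p = 0.131 by edgeR).

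Between 2 d and 4 d, 24 members fell (13.5% of all genes were called lower) and none rose (13.1% of all genes were called higher). The median was -0.89, against 0.00 over all genes. No member was higher at an unadjusted p under 0.05 in that step by edgeR, and DESeq2 and limma-voom also called none higher. Of the 24 genes lower at 4 d against untreated cells, 21 were also lower against 2 d; both comparisons share the 4 d libraries. BRCA2 (-0.93), FANCF (-0.60) and FANCL (-0.53) fell against 2 d and were not called against untreated cells. By edgeR, 18 of the 24 calls held without each library in turn; the exceptions were CHEK2, PALB2, BRCA2, FANCF, FANCG and FANCL. They lost their calls without single 2 d or 4 d libraries (adjusted p between 0.051 and 0.155), CHEK2 also without 4 h replicate 1 (0.0529), and CHEK2 and PALB2 without 4 h replicate 2 (0.0556 and 0.0532).

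BRCA1, BARD1 and BRIP1 were highest on average at 4 h or 2 d. From 2 d to 4 d BRCA1 fell by 1.25, BRIP1 by 1.12 and BARD1 by 1.04 on the log2 scale, beside 1.04, 0.58 and 0.52 from untreated cells. FANCI and FANCB, with means above the untreated ones at 2 d, each fell by 1.22 from there. ATM and NBN differed from their 2 d levels by 0.36 and 0.14, at adjusted p of 0.258 and 0.64 by edgeR.

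At 4 h no member was called by edgeR, in either direction (4.23% of all genes were called lower and 2% higher). At an unadjusted p under 0.05 edgeR had 7 members higher and 1 lower, where 1570 and 1632 of the 12671 tested genes were. DESeq2 called 2 members higher (525 of all genes). Of the members limma-voom called none (221 of all genes higher and 454 lower). The members' median was 0.23 against 0.00 over all genes, and 18 of the 33 had their highest group mean at 4 h, a share not counted over all genes. From 4 h to 2 d, 8 members were lower (18% of all genes) and none higher (16.5% of all genes; none at an unadjusted p under 0.05 by edgeR, and none by DESeq2 or limma-voom). They were RBBP8, PALB2, RAD54B, RAD51C, ATR, CHEK1, EXO1 and BLM, at -0.66 to -0.41, and the calls of ATR, PALB2, CHEK1 and RAD51C held without each library in turn. RBBP8, EXO1, BLM and RAD54B lost theirs without 4 h replicate 1 or 2 or 2 d replicate 2 or 3 (adjusted p by edgeR between 0.0696 and 0.15), all but EXO1 without 2 d replicate 1 (0.0919 to 0.133), and BLM and RAD54B without 0 h replicate 3 (0.0511 and 0.0555).

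The 4 h differences went with base composition. The 6 members whose transcripts hold 50% GC or more (FANCA, FANCC, FANCE, FANCG, RAD54L and XRCC3) had a median of -0.35, and the other 27 a median of 0.30. Across the 33 members the Spearman correlation between GC content and the 4 h log2 fold change was -0.76, and across 12353 tested genes it was -0.51. It was -0.52 at 2 d and -0.30 at 4 d over the members, beside -0.18 and -0.03 over the 12353 tested genes. Genes are not independent replicates and share the libraries, so these values only describe the 12 libraries.

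**Figure D4:**
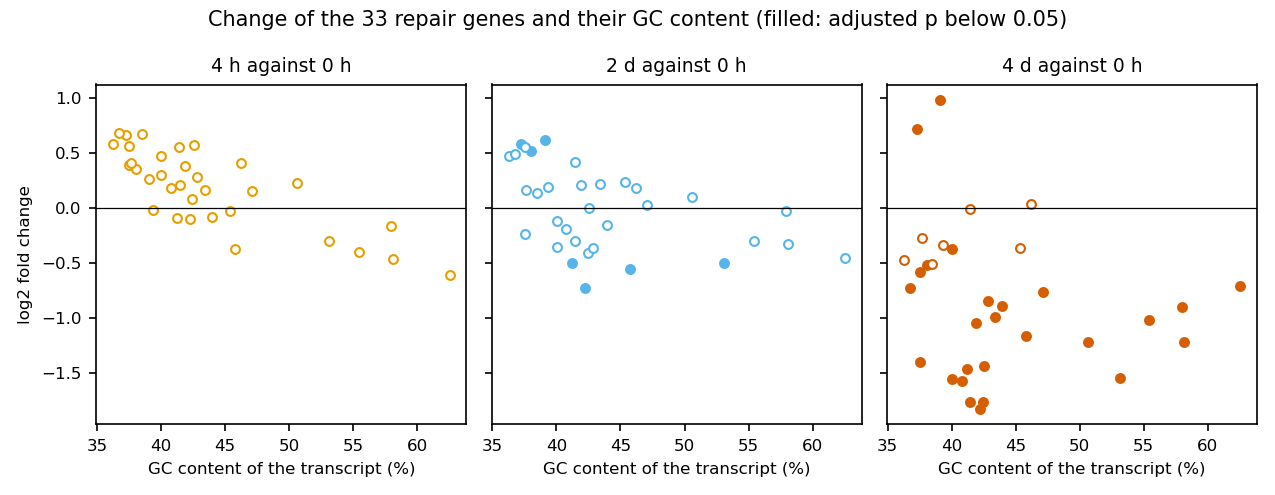
Each point is 1 of the 33 genes, placed by the GC content of its transcript (x, %) and its log2 fold change against 0 h (y), at 4 h, 2 d and 4 d; filled points passed an adjusted p of 0.05. The points slope down at 4 h, with a Spearman correlation of -0.76, and at 4 d both ends of the GC range lie mostly below 0.

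With the GC and length offset the 4 h median of the members was -0.02, with 1 member called higher (594 of all 12671 genes). Without the 3 GC-shifted libraries 13 members were higher and 2 lower at 4 h, where 1573 and 1619 of all 12806 genes were. Without 4 h replicate 3 alone 7 members were higher (796 of all 12934 genes). In a set chosen after seeing the data, where 4 h replicate 1 was left out in place of 4 h replicate 3, no member was called. There 211 of all 12723 genes were higher and 466 lower. At 4 d the members' median was -1.01 with the offset, -0.90 without the 3 GC-shifted libraries and -0.90 without the set chosen after seeing the data. Over the 12 fits that left out 1 library, the 4 d calls of 21 of the 26 members held in each fit.

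Further genes of the pathway also fell at 4 d. Of 70 further genes of homologous recombination, damage signalling, Fanconi and mismatch repair, 68 passed the filter. Of these 31 fell (45.6%, beside the 29.7% of all tested genes) and 2 rose (2.94%, beside 28.1%), with a median of -0.46. Among the recombination partners 12 of 28 fell, among them RPA3, a subunit of the single-strand binding protein RPA (-1.69). RAD52, an annealing factor, was called higher (0.59, adjusted p = 0.0366 by edgeR). That call was lost, at adjusted p of 0.119 and 0.142, when replicate 1 or 3 at 0 h was left out. It was also lost without replicate 1 at 4 h (0.0563), replicate 2 at 2 d (0.052) or replicate 1 at 4 d (0.169), the change being 0.39 in the last. With only the 6 libraries of the 2 groups or replicate number as a block, the adjusted p of RAD52 was 0.102 or 0.0616 by edgeR.

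Of the damage signalling partners 8 of 20 fell (40%, beside 29.7% of all tested genes). RAD1 of the 9-1-1 clamp was at -1.39 and ATRIP, the partner of ATR, at -1.31. RNF169, which binds damage-marked nucleosomes, rose by 1.66 ± 0.43 (adjusted p = 0.00516 by edgeR). Of the Fanconi partners 7 of 15 fell (46.7%), with STRA13 (CENPX, a partner of FANCM) at -1.45. UBE2T, the conjugating enzyme that works with FANCL, was at -1.39, or -0.65 with the GC and length offset. Of the mismatch repair partners 4 of 5 fell (80%), among them PMS1 at -1.12. SLX1A had no read.

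Other repair branches held genes of both directions at 4 d, where 29.7% of all tested genes were called lower and 28.1% higher. In non-homologous end joining, which rejoins ends without a template, 3 of 10 genes fell (30%), about the share of all genes, and 2 rose (20%). Those that fell included the Ku subunit XRCC6 (-1.47) and the kinase PRKDC (-1.24). There LIG4, the ligase of the pathway, rose by 1.40 ± 0.19 (adjusted p = 3.58e-05) and its cofactor NHEJ1 by 1.01 ± 0.20 (adjusted p = 0.000636 by edgeR). In base excision repair 11 of 20 fell (55%), led by the glycosylases NTHL1 (-2.86) and UNG (-2.58). OGG1, 5% of the list, was called higher (0.50, adjusted p = 0.023 by edgeR). The OGG1 call was lost without 0 h replicate 1, 0 h replicate 2, 4 d replicate 2 or 4 d replicate 3, at adjusted p between 0.0592 and 0.0878 by edgeR. With no filter on low counts or only the 6 libraries of the 2 groups, its adjusted p was 0.0536 or 0.0605 by edgeR. In nucleotide excision repair 8 of 19 fell (42.1%) and 3 rose (15.8%), with GTF2H5 of TFIIH at -1.35 and the damage sensor DDB2 at -1.25. ERCC6 (1.36) and UVSSA (1.35, or 0.86 with the GC and length offset), which act together at stalled transcription, were higher.

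**Figure D5:**
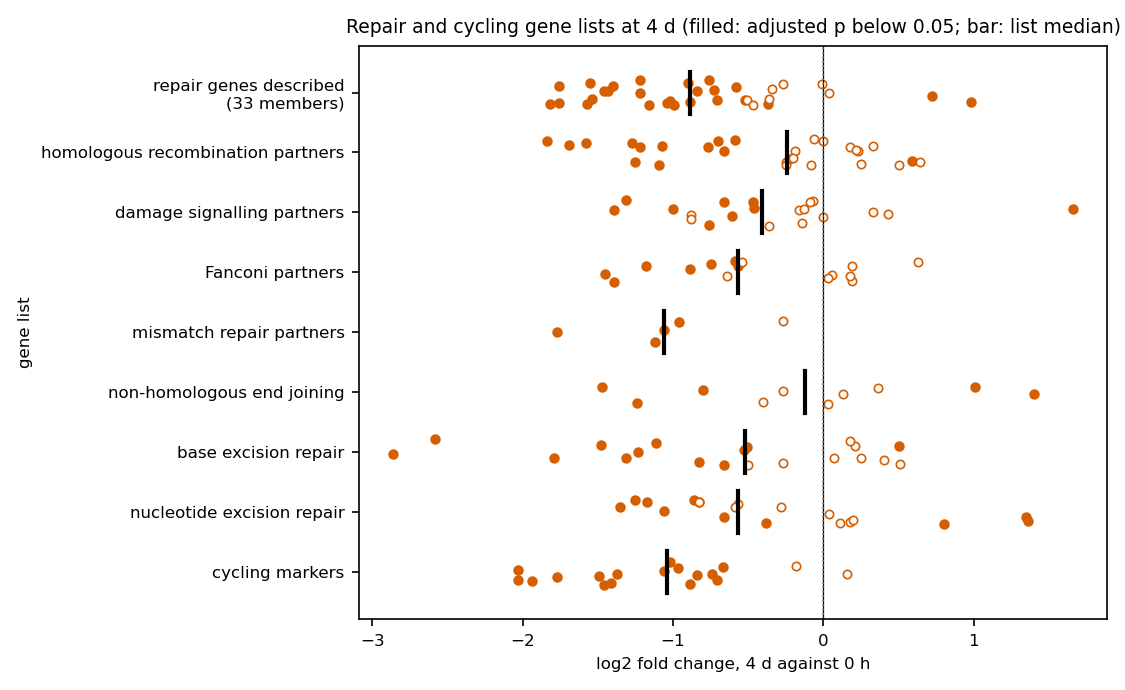
Each point is the log2 fold change of 1 gene at 4 d against 0 h, in the 33 described genes and in 8 further lists; filled points passed an adjusted p of 0.05, black bars are list medians and the dotted line is the median of all tested genes. The described genes (median -0.89) and the cycling markers (median -1.04) lie furthest left with the mismatch repair partners (-1.06), while end joining spreads to both sides of 0 (-0.12).

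Markers of cycling cells fell with the members. Of 18 such genes 16 were lower at 4 d (88.9%, beside 29.7% of all tested genes), with a median of -1.04. The largest falls were of the transcription factor E2F1 (-2.03 ± 0.25, adjusted p = 1.3e-05) and the replicative helicase subunit MCM6 (-2.03 ± 0.25, adjusted p = 1.41e-05 by edgeR). The remaining pair, MKI67 (0.16) and TOP2A (-0.18), named after their values were seen, was not called against untreated cells; with the GC and length offset MKI67 was at -0.31 (adjusted p = 0.0147 by edgeR). Both were higher at 2 d, each by 0.92 on the log2 scale. Against 2 d, 17 of the 18 were lower at 4 d (94.4%, beside 13.5% of all tested genes). Relative to the untreated mean, the members' median was -0.90, -0.87 and -0.91 in the 3 libraries at 4 d, and that of the cycling markers was -1.37, -1.14 and -1.06. The part that a change in the share of cycling cells has in the members' fall was not tested.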

How the data were processed

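RNA was sequenced from 12 libraries of HL-60 cells, in 4 groups of 3. The authors trimmed reads with Trim Galore 0.6.7, aligned them with HISAT2 2.1.0 to hg19 and counted them per gene with HTSeq 1.99.2, per the submitters' processing notes; the deposited values are raw read counts per gene. Neither the annotation nor the strand setting is stated there. Reads with no gene (13.97% to 28.15%) or an ambiguous gene (2.74% to 3.9%) were left out of totals. The chi-square per degree of freedom between replicates was 3.47 to 98.02, so none was counted as a repeat of another.

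One edgeR 4.0.16 quasi-likelihood fit (R 4.3.3) held all 12 libraries, with TMM factors, 1 mean per time and edgeR's filter on low counts (12671 genes kept, 99.9% of gene reads). Adjusted p-values are Benjamini-Hochberg over all genes tested, and SE is the log2 fold change over the root of F. CPM are scaled by TMM. The script was tested on simulated data. GC content and length came from GENCODE transcripts matched by symbol (92.7% of genes, all 33 members), and promoters from RefSeq GRCh38.p14. Alternatives used limma 3.58.1 and DESeq2 1.42.0 among others.

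The members, the gene lists and the named-gene rule were chosen with earlier results of these data known. By that rule, all 33 members are accounted for by role. Values in every library are given for the called member of each role with the largest change at 4 d in each direction. Of each other list, up to 2 called genes per direction are named; some listed genes are not reported here. XRCC3, FANCG, BRCA2 and PMS2 were added after their values were seen, as were MKI67 and TOP2A.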

Additional observations from a re-analysis of the deposited data

How the results depend on the processing

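The 24 lower and 2 higher calls at 4 d became 14 and 0 when a change of at least 2-fold was also asked. From 2 d to 4 d, 24 lower became 14. Over all genes the 2-fold counts were 2230 lower and 2230 higher at 4 d, and 616 lower from 2 d to 4 d. Other alternatives left these member counts within 1.5 times. Other counts of called members moved more, and those over all genes moved too. Without the 3 GC-shifted libraries all genes went from 536 lower and 254 higher to 1619 and 1573 at 4 h. At 2 d they went from 2370 and 2142 to 3500 and 3261. From 4 h to 2 d they went from 2283 and 2094 to 3401 and 3324. All genes at 4 h had 1211 lower and 749 higher with no filter (23266 genes), 816 and 525 with DESeq2, and 802 and 594 with the GC and length offset. Leaving out single libraries, they ran from 166 to 723 lower and from 88 to 796 higher. Of the members at 4 h, the lower count was 1 with no filter on low counts and 2 without the 3 GC-shifted libraries. Their higher count was 2 with DESeq2 or no filter, 13 without those libraries, 1 with the GC and length offset, and 0 to 7 leaving out single libraries. At 2 d, 4 lower became 1 with library totals alone or an adjusted p of 0.01, 2 with no filter or the replicate block, 0 at 2-fold, 9 without the 3 GC-shifted libraries or with the offset, 8 without the set chosen after seeing the data, and 1 to 6 leaving out single libraries. The 3 higher became 0 with library totals, the replicate block, an adjusted p of 0.01 or 2-fold, 6 without the 3 GC-shifted libraries, and 0 to 4 leaving out single libraries. Over all genes the 2 d counts, lower and higher, were 2043 and 2068 with library totals and 1473 and 1232 at an adjusted p of 0.01. They were 2431 and 2305 with no filter, 1901 and 1704 with the replicate block, 1080 and 1042 at 2-fold, and 2857 and 2760 with the offset. Without the set chosen after seeing the data they were 3057 and 2800, and with single libraries left out 1648 to 2638 and 1476 to 2342. From 4 h to 2 d, 8 lower became 4 with library totals, no filter or an adjusted p of 0.01, 5 with the replicate block, 0 at 2-fold, 15 without the 3 GC-shifted libraries, and 4 to 9 leaving out single libraries. The higher count was 1 without either set of libraries and 2 with the offset. Over all genes that step had 1933 lower with library totals, 2214 with no filter and 1413 at an adjusted p of 0.01. It had 1859 lower with the replicate block, 937 at 2-fold, and 1648 to 2651 leaving out single libraries. All genes higher were 2989 without the set chosen after seeing the data and 2863 with the offset. From 2 d to 4 d the higher count was 2 without the 3 GC-shifted libraries, and 1 without the set chosen after seeing the data or with the offset. Over all genes it was 2741, 2198 and 2403 in these settings, in that order. The replicate numbers did not pair the libraries: correlations of same-numbered deviations ran from -0.81 to 0.68.

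The members or markers that changed sign were not called in the fit as reported. At 2 d MRE11A (0.14) was at -0.09 without the 3 GC-shifted libraries, -0.08 without the set chosen after seeing the data and -0.16 with the offset (-0.08 to 0.29 over single libraries left out). In the same order RAD51D (0.03) was at -0.05, -0.04 and -0.29 (-0.04 to 0.07), FANCE (-0.03) at 0.05, 0.06 and 0.03 (-0.10 to 0.06; 0.04 with library totals), and XRCC2 (0.00) at -0.18 and -0.17 (-0.17 to 0.16; -0.01 with only 6 libraries). FANCA (-0.30) was at 0.07 and 0.08 without the sets (-0.51 to 0.08). The offset alone put BRCA1 at -0.08, BRCA2 and FANCC at -0.02 and FANCM at -0.21 at 2 d, and FANCL at 0.11 and MKI67 at -0.31 at 4 d. At 4 d RAD50 (-0.01) was at 0.02 with RLE factors, 0.07 with library totals, 0.01 with DESeq2 or limma-voom and 0.00 with the stricter filter or the replicate block (-0.25 to 0.19), PMS2 (0.04) at -0.03 without either set (-0.01 to 0.10), and TOP2A at -0.43 to 0.06 over single libraries. The rarest members had few reads in single libraries, 22 to 112 for FANCB and 24 to 165 for RAD54B.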
